A study of Homo sapiens with 6 samples.

Results

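The genes described here are 28 human genes of cholesterol synthesis, sterol transport and the SREBP2 control system. They are standard members of the pathway, chosen with earlier results of these data known. In all, 14199 genes could be tested. Of the 28 genes, 26 had at least 1 probe set (a group of short probes read as 1 value) that the array annotation assigns to a single gene, and all 26 passed the filter on low signal. CYP51A1, the lanosterol demethylase, is paired only with probe sets assigned to several genes, and FDFT1, the squalene synthase, has no named probe set here, so neither is given a value. Expression was measured on 6 one-colour oligonucleotide arrays of SW480, an established colon carcinoma cell line. Of these, 3 carried RNA from cells given a short hairpin RNA (shRNA) against gankyrin and 3 from cells given a non-targeting shRNA, each for 4 days. Gankyrin, the product of PSMD10, is an assembly chaperone of the proteasome. Neither separate cultures nor the number of hairpins is stated in the labels. The p-values therefore describe the spread among the 6 arrays, and that spread may be technical. In a bulk RNA sample a lower signal from fewer cells expressing a gene cannot be told apart from less RNA per cell. All values are log2 probe set signals as deposited, and a difference is the mean of the gankyrin shRNA arrays minus the mean of the control shRNA arrays. Because probe sets differ in how strongly they hybridise, signals of different genes were not set against each other.

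Cells make cholesterol from acetyl-CoA. Acetoacetyl-CoA and HMG-CoA lead to mevalonate, which is phosphorylated and decarboxylated to isoprenoid units; these are joined to farnesyl diphosphate and squalene, and squalene is closed to lanosterol and trimmed to cholesterol. The genes of these steps are controlled together by SREBP2 (SREBF2), a membrane-bound transcription factor of the endoplasmic reticulum. When sterols are low, the escort protein SCAP carries SREBP2 to the Golgi, where proteases release its active part. When sterols are plentiful, the INSIG proteins hold SCAP back. SREBP2 is a weak activator by itself and acts on these promoters with partner factors such as NF-Y, which recognises CCAAT letters, and Sp1, which recognises GC boxes.

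The knockdown was checked on every array. PSMD10 had log2 signals of 6.58, 6.47 and 6.30 in gankyrin shRNA replicates 1 to 3, against 10.19, 10.23 and 10.15 in control shRNA replicates 1 to 3. It fell by 3.74 ± 0.08 SE (limma adjusted p = 6.81e-09). NFIL3, which a sentence of the series design names in place of gankyrin, averaged 9.07 ± 0.05 in gankyrin shRNA arrays and 9.33 ± 0.13 in control shRNA arrays (SD, n = 3 each). Of 11 colon epithelial markers all 11 were measured, with EPCAM at 12.2 on average in both groups and the homeobox gene CDX2 low at 4.12 ± 0.32 and 4.19 ± 0.07 in gankyrin and control shRNA arrays (SD, n = 3 each). CDH17 was lower still, at 3.84 ± 0.11 and 3.57 ± 0.06 in the same order (SD, n = 3 each), near the filter limit of 3.6. CDX1 averaged 5.89 over all arrays. Among the 11 markers VIL1 rose, and KRT20, CDH1 and KRT19 fell. Of 15 markers of leukocytes, endothelium, fibroblasts and liver 8 were measured and 0 passed. The markers PTPRC of leukocytes, CDH5 and VWF of endothelium, COL1A2 of fibroblasts and ALB of liver lay below the filter. The 8 measured ones averaged 4.42 (CD14) to 7.12 (COL1A1) over all arrays, with CD3E at 4.97, PECAM1 at 5.08, DCN at 4.66, PDGFRB at 4.46, APOA1 at 4.57 and TTR at 6.18. They were not tested against background, and their part in the results was not tested.

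Control shRNA replicate 3 stood apart from the other 5 arrays along the length of transcripts. The array carries probe sets for the 5′ end, the middle and the 3′ end of some transcripts. For GAPDH the 5′ probe set read 12.97 to 13.02 in gankyrin shRNA arrays and 12.90, 12.90 and 12.33 in control shRNA arrays, whereas the 3′ probe set lay between 12.88 and 12.91 on all 6. The bacterial spike-in transcript thr showed the same gap, with a 5′ signal of 6.19, 6.01 and 5.86 in gankyrin shRNA arrays and of 6.01, 6.07 and 3.91 in control shRNA arrays. Over GAPDH and the 4 bacterial spike-in transcripts the 5′ probe set of control replicate 3 lay at -2.13 to -0.57 relative to the mean of control replicates 1 and 2, and the 3′ probe set at -0.07 to 0.68. For 18S ribosomal RNA, left out of that range, the gap was -0.26 at the 5′ end, 0.10 in the middle and 0.02 at the 3′ end. The cause of this was not tested. Among all 32759 probe sets past the filter, 7.61% were lower by over 0.5 on control replicate 3, as were 14.2% of those whose names end in _s_at (probes shared by several transcripts), 23.9% of those in _a_at, 8.14% of those in _x_at and 3.98% of those with no such letter. Of the 52 member probe sets past the filter 4 were lower by over 0.5 there, and all 4 names end in _s_at. Results are therefore given with all 6 arrays and without control replicate 3.

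**Figure D1:**
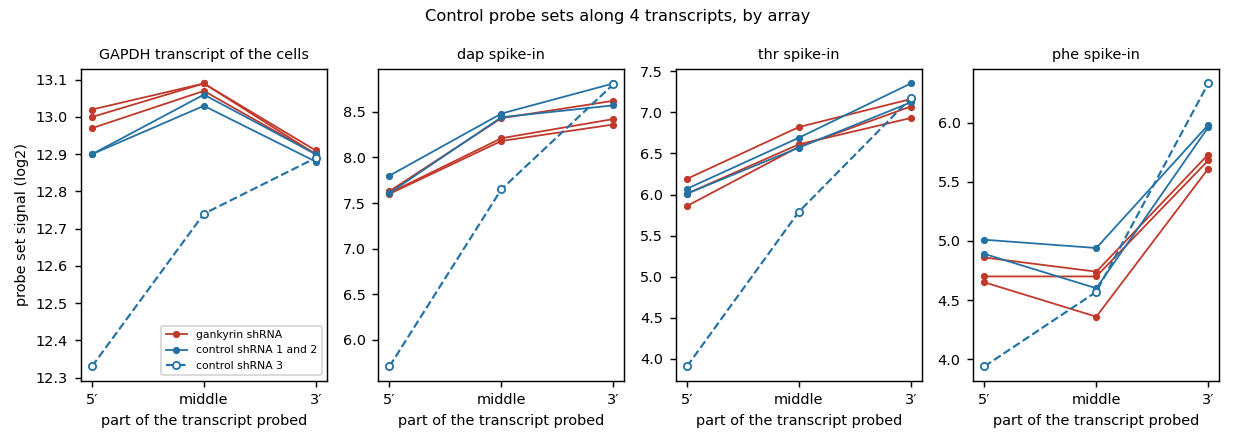
Log2 signals of the 5′, middle and 3′ control probe sets of GAPDH and of the spike-in transcripts dap, thr and phe, with 1 line per array. Control shRNA replicate 3 (dashed) is the lowest array at the 5′ end of all 4 transcripts, reading 3.91 for thr against 5.86 to 6.19 on the other 5 arrays, and is not low at the 3′ end.

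Sterol genes rose after gankyrin knockdown more often than they fell, by 1.195-fold to 1.78-fold where they passed. Of 26 measured members 11 rose and 0 fell (limma, adjusted p under 0.05 over all genes). Among all 14199 genes 8.13% rose and 14.3% fell. The 11 were ACAT2, MVD, IDI1, FDPS, LSS, MSMO1, EBP, SC5D, DHCR7, INSIG1 and STARD4. The median log2 difference of the members was 0.24, against -0.02 over all genes, and 22 of the 26 differences were above 0. Without control replicate 3 the count was 14 higher and 0 lower, with HMGCS1, HSD17B7 and SCAP added, while 12.7% of all genes then rose and 16.6% fell, and the median was 0.20. In 15 members all 3 gankyrin shRNA arrays lay above all 3 control shRNA arrays, which held for 15.7% of all genes. All 3 lay below in 0 members, and in 3493 of all 14199 genes. Averaged over the 26 members, signals stood 0.22, 0.25 and 0.24 above the mean of control replicates 1 and 2 on the 3 gankyrin shRNA arrays and at -0.10 relative to it on control replicate 3. Without gankyrin shRNA replicate 2 it was 7 higher and 0 lower, where 4.32% of all genes rose and 7.96% fell. Without gankyrin shRNA replicate 3 it was also 7 and 0, against 4.66% and 7.54%. For a single gene, permuting 3 against 3 arrays exactly (two-sided) gives no p below 0.1.

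**Figure D2:**
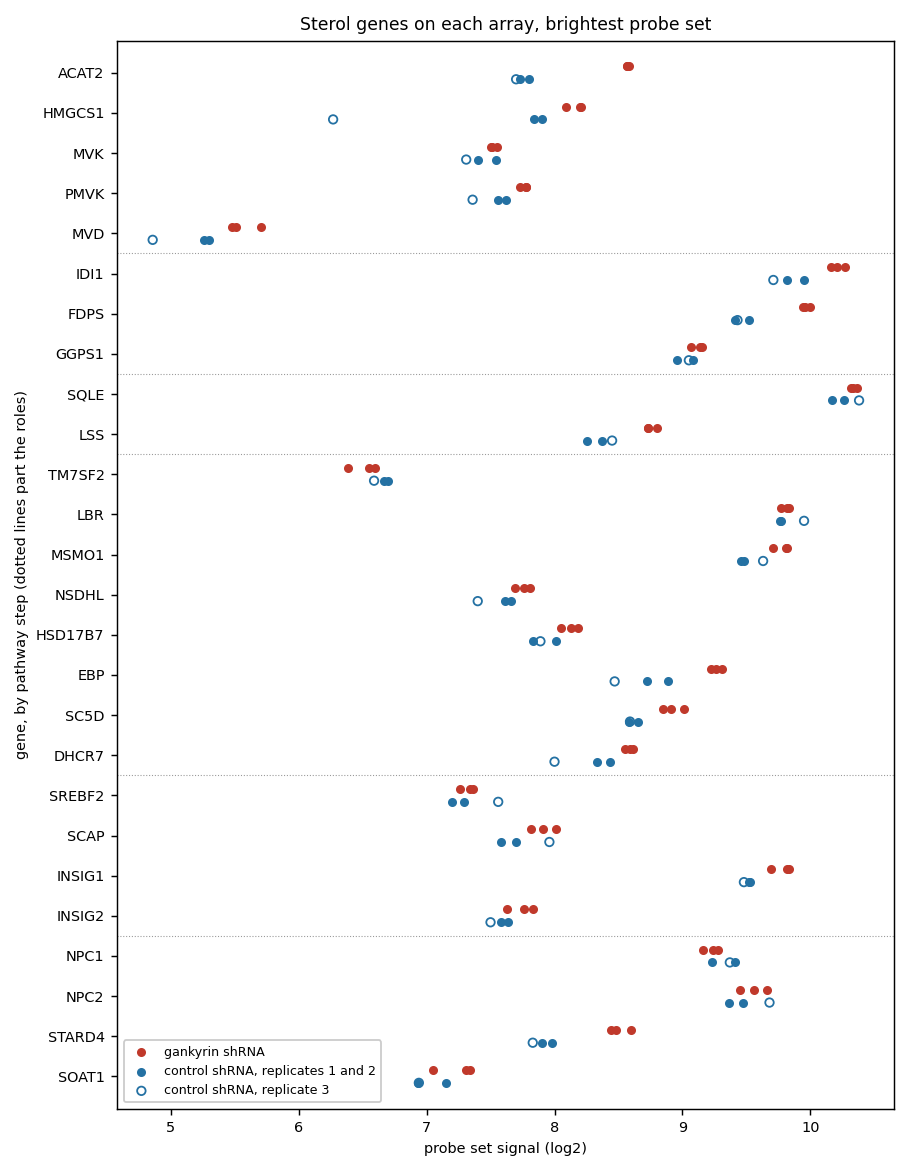
Log2 signal of the brightest probe set of each of the 26 measured genes on each array, in pathway order from top to bottom, with gankyrin shRNA arrays above control shRNA arrays in each row. ACAT2, FDPS and STARD4 show 3 gankyrin shRNA points well apart from 3 control points, whereas control replicate 3 (open circle) lies far left for HMGCS1, at 6.27.

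**Figure D3:**
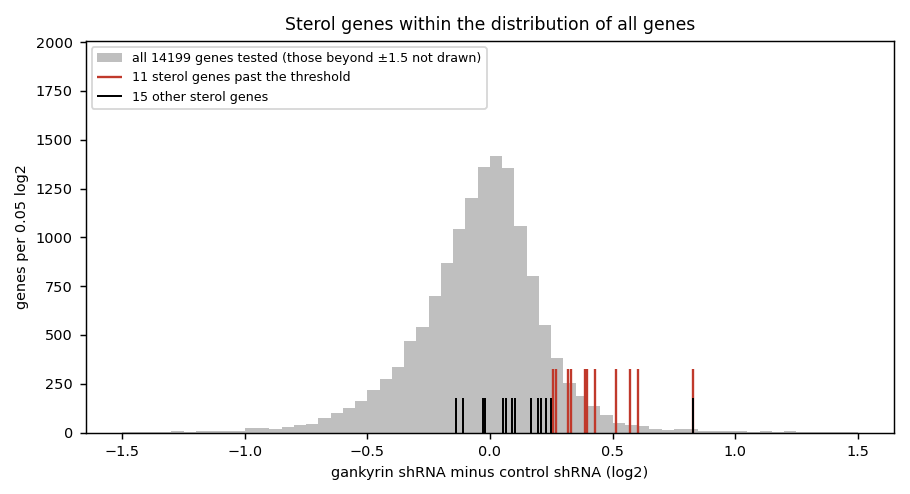
Histogram of the log2 difference, gankyrin shRNA minus control shRNA, over all genes tested, with the members as lines. The 11 members past the threshold (tall lines) lie between 0.26 and 0.83, and the lowest of the other 15 (short lines) is at -0.14.

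The promoters of these genes were read for letters that SREBP2 and its partners recognise, as a description of what the members share. RefSeq promoter windows of GRCh38.p14, from 250 bases before to 50 bases after an annotated start, were held for 25 members (34 windows). The NF-Y letters CCAAT, on either strand, were found in 19 of the 25 members. By gene this stands against 42.4% of the 11364 tested genes with a window and 39.7% of all genes with one. By window CCAAT was in 21 of the 34 member windows, against 34.6% of all 35116 windows. All 10 of the members that rose and had a window carried CCAAT, and so did 9 of 14 members that did not pass. The Sp1 letters GGGCGG were found in 23 of 25 members, against 73.0% of tested genes, and in 30 of 34 member windows, against 44.95% of all windows. The SREBP letters TCACNCCAC were found in 1 of 25 members, SREBF2, against 1.49% of tested genes, and in 1 of 34 member windows, against 1.13% of all windows. SREBP sites that differ from these letters were not searched. No match of 1 motif overlapped a match of another in the member windows. The windows with the most CCAAT matches over both strands, 5 each, were those of MVK and NSDHL, which did not pass. The NSDHL count includes a plus and a minus strand match that share bases, in the stretch CCAATTGG. Windows are printed, as examples chosen after their values were seen, for 4 members that rose and carry several CCAAT boxes, for SREBF2 with the SREBP letters, and for LBR, which did not pass and carries 0 matches of the 3 motifs. Capitals mark CCAAT, its reverse complement ATTGG and, in SREBF2, TCACCCCAC, whose first base lies 133 bases before the start.
FDPS, chr1:155308616-155308915, plus strand: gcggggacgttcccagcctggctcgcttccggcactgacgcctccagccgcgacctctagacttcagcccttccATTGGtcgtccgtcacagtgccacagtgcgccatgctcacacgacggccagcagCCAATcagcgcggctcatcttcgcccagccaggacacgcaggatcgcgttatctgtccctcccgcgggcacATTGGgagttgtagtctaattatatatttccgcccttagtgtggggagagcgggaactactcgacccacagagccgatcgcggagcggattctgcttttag
STARD4, chr5:111512486-111512785, minus strand: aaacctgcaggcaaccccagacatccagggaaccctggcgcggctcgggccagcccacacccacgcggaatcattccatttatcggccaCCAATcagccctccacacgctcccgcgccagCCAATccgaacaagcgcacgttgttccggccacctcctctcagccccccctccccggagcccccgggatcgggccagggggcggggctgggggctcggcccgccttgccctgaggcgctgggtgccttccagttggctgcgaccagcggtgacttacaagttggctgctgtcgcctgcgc
EBP, chrX:48521558-48521857, plus strand: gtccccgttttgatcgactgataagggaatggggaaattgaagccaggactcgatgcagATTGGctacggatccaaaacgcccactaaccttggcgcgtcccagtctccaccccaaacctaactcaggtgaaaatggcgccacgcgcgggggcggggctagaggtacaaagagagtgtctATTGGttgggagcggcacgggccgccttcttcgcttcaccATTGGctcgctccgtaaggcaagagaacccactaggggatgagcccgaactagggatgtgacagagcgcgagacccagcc
MSMO1, chr4:165327419-165327718, plus strand: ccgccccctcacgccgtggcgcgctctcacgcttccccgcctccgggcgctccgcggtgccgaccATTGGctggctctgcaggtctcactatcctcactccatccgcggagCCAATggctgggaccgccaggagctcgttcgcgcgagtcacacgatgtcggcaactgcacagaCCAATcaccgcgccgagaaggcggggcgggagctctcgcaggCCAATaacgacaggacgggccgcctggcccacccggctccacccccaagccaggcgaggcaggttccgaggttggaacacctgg
SREBF2, chr22:41832855-41833154, plus strand: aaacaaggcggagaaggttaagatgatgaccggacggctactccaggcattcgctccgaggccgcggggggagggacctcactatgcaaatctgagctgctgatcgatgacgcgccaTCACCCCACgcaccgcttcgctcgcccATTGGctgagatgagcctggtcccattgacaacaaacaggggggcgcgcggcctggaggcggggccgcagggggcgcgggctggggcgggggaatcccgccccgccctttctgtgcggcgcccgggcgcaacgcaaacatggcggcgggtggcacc
LBR, chr1:225428772-225429071, minus strand: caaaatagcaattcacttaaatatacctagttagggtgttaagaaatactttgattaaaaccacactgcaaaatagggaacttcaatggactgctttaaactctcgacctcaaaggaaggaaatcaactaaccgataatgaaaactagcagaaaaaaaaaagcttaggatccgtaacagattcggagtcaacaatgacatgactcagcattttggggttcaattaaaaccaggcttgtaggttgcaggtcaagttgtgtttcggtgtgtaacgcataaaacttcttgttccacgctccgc
FDPS and EBP hold 3 CCAAT boxes each, MSMO1 holds 4 and STARD4 holds 2. A match is a run of letters and does not show binding.

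The first steps make mevalonate diphosphate, which MVD then decarboxylates. ACAT2, the cytosolic thiolase that joins acetyl-CoA units into acetoacetyl-CoA, gave the smallest adjusted p of the 26 genes. Its log2 signals were 8.58, 8.57 and 8.57 in gankyrin shRNA arrays, against 7.73, 7.80 and 7.70 in control shRNA arrays. The groups lay far apart, and control replicate 3 was like the other controls. ACAT2 rose 1.78-fold (log2 0.83 ± 0.06 SE, limma adjusted p = 3.47e-05), above 99.5% of all genes, and the difference was 0.81 without control replicate 3.

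HMGCS1, the cytosolic HMG-CoA synthase, had the same mean difference on its brightest probe set, with 1 control array far from the rest. Its signals were 8.21, 8.09 and 8.20 in gankyrin shRNA arrays and 7.90, 7.84 and 6.27 in control shRNA arrays. The groups did not overlap, but control replicate 3 lay at -1.6 relative to the mean of the other controls. HMGCS1 was at 0.83 ± 0.34 SE and did not pass with 6 arrays (limma adjusted p = 0.114), and passed without that array at 0.30 ± 0.06 SE (adjusted p = 0.00222). On its second probe set, which is not low on control replicate 3, gankyrin shRNA arrays read 7.36, 7.59 and 7.46 and control shRNA arrays 7.40, 7.45 and 7.56, a difference of 0.00.

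Of the kinases and the decarboxylase that follow, 1 of 3 rose. MVK, mevalonate kinase, had 7.50, 7.51 and 7.55 in gankyrin shRNA arrays and 7.54, 7.40 and 7.31 in control shRNA arrays, which overlap (log2 0.10 ± 0.08 SE, limma adjusted p = 0.405). Its dimmer probe sets were at 0.20, 0.75 and -0.06, and 0 passed over probe sets with 6 arrays. The one at 0.75, low on control replicate 3, was at 0.38 without that array and passed (limma adjusted p = 0.0115 over probe sets). PMVK, phosphomevalonate kinase, had 7.78, 7.78 and 7.73 in gankyrin shRNA arrays and 7.56, 7.62 and 7.36 in control shRNA arrays. PMVK did not overlap but missed the threshold (0.25 ± 0.08 SE, limma adjusted p = 0.0573). MVD had 5.48, 5.51 and 5.71 in gankyrin shRNA arrays and 5.30, 5.26 and 4.86 in control shRNA arrays, again with control replicate 3 lowest. MVD rose by 0.43 ± 0.13 SE (limma adjusted p = 0.0413), and by 0.29 without that array (adjusted p = 0.0409). Its call was lost without any of the gankyrin shRNA arrays (adjusted p = 0.0840, 0.0944 and 0.158), without control replicate 2 (0.0521) and with the replicate block (0.0647).

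Of the 3 isoprenoid genes 2 rose, both on the path to farnesyl diphosphate. FDPS, farnesyl diphosphate synthase, had 10.00, 9.96 and 9.94 in gankyrin shRNA arrays, against 9.41, 9.52 and 9.43 in control shRNA arrays. These values are tight within each group, with control replicate 3 between the other controls. FDPS rose 1.43-fold (log2 0.51 ± 0.05 SE, limma adjusted p = 2.23e-04; 0.50 without control replicate 3). IDI1, which isomerises isopentenyl diphosphate, had 10.16, 10.21 and 10.27 in gankyrin shRNA arrays and 9.82, 9.95 and 9.71 in control shRNA arrays. IDI1 rose by 0.39 ± 0.07 SE (limma adjusted p = 0.00305). A second bright IDI1 probe set gave 0.38, while the 2 dim ones gave -0.02 and -0.27, and both bright ones have names ending in _x_at, which marks probes that may match other genes. GGPS1, which draws farnesyl diphosphate off to geranylgeranyl diphosphate for protein prenylation, had 9.07, 9.15 and 9.14 in gankyrin shRNA arrays and 8.96, 9.08 and 9.05 in control shRNA arrays. The GGPS1 groups overlap (0.09 ± 0.06 SE, limma adjusted p = 0.328), and its second probe set was at -0.17.

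Of the genes that carry squalene to lanosterol, LSS rose and SQLE depended on the probe set. LSS, lanosterol synthase, had 8.73, 8.73 and 8.80 in gankyrin shRNA arrays, against 8.37, 8.25 and 8.45 in control shRNA arrays. LSS rose by 0.40 ± 0.07 SE (limma adjusted p = 0.00356), and by 0.44 without control replicate 3. A dimmer LSS probe set read 6.12, 6.38 and 6.38 in gankyrin shRNA arrays and 5.52, 5.39 and 3.77 in control shRNA arrays. Its difference was 1.40 with all arrays and 0.84 without control replicate 3 (limma adjusted p = 0.0804 and 1.20e-04 over probe sets). SQLE, squalene epoxidase, had 10.32, 10.36 and 10.33 in gankyrin shRNA arrays and 10.17, 10.26 and 10.38 in control shRNA arrays on its brightest probe set, which overlap (0.07 ± 0.06 SE, limma adjusted p = 0.462). On the next probe set SQLE read 8.61, 8.58 and 8.59 in gankyrin shRNA arrays, against 8.19, 8.09 and 8.18 in control shRNA arrays. That probe set rose by 0.44 (limma adjusted p = 0.00761 over probe sets), and all 4 SQLE probe sets had differences above 0.

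The trimming of lanosterol to cholesterol held 4 of the 11 rises among its 8 measured genes, and 0 falls. EBP, the sterol isomerase, had 9.26, 9.22 and 9.31 in gankyrin shRNA arrays, against 8.72, 8.89 and 8.47 in control shRNA arrays. EBP rose by 0.57 ± 0.10 SE (limma adjusted p = 0.00270), and by 0.46 without control replicate 3, its lowest array. Its second probe set gave 0.38 with all arrays and 0.48 without that array, and its dimmest gave -0.03. SC5D, the sterol C5 desaturase, had 8.85, 8.91 and 9.01 in gankyrin shRNA arrays and 8.58, 8.65 and 8.59 in control shRNA arrays. SC5D rose by 0.32 ± 0.07 SE (limma adjusted p = 0.00732). The second, dimmer SC5D probe set was at 0.20 and did not pass, so the call was lost with the next brightest probe set (adjusted p = 0.291) and with names ending in _x_at or _s_at avoided (0.248).

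MSMO1, the C4 methylsterol oxidase, had 9.71, 9.81 and 9.82 in gankyrin shRNA arrays and 9.46, 9.48 and 9.63 in control shRNA arrays. Here control replicate 3 was the highest control, so the rise of 0.26 ± 0.06 SE (limma adjusted p = 0.0174) was 0.31 without it. The MSMO1 call was lost without gankyrin shRNA replicate 2 or 3 or control replicate 2 (adjusted p = 0.0791, 0.0830 and 0.0584). DHCR7, the last reductase of the pathway, had 8.55, 8.59 and 8.61 in gankyrin shRNA arrays and 8.43, 8.33 and 8.0 in control shRNA arrays. DHCR7 rose by 0.33 ± 0.10 SE (limma adjusted p = 0.0424), and by 0.20 without control replicate 3 (adjusted p = 0.0149), a log2 difference smaller by over 1.5 times. The second DHCR7 probe set was at 0.04. The DHCR7 call was lost without gankyrin shRNA replicate 1, 2 or 3 (adjusted p = 0.106, 0.126 and 0.136) and without control replicate 2 (0.0603).

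The other 4 late genes did not pass. NSDHL, a sterol dehydrogenase, had 7.81, 7.69 and 7.76 in gankyrin shRNA arrays and 7.61, 7.66 and 7.40 in control shRNA arrays (0.20 ± 0.09 SE, limma adjusted p = 0.134). HSD17B7, the 3-ketosteroid reductase, had 8.13, 8.18 and 8.05 in gankyrin shRNA arrays and 8.01, 7.83 and 7.89 in control shRNA arrays, without overlap (0.21 ± 0.08 SE, limma adjusted p = 0.0726; 0.0404 without control replicate 3). Its probe set name also ends in _x_at, and a pseudogene of HSD17B7 is on the array. The sterol C14 reductase step is served by TM7SF2 and by LBR, which is also a receptor for lamin B in the nuclear envelope. TM7SF2 had 6.60, 6.55 and 6.39 in gankyrin shRNA arrays and 6.67, 6.70 and 6.59 in control shRNA arrays (-0.14 ± 0.09 SE, limma adjusted p = 0.296). LBR had 9.77, 9.82 and 9.83 in gankyrin shRNA arrays and 9.77, 9.76 and 9.95 in control shRNA arrays, nearly the same level (-0.02 ± 0.06 SE, and 0.04 without control replicate 3). The C14 reductases thus held the 2 synthesis differences below 0 with all 6 arrays.

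**Figure D4:**
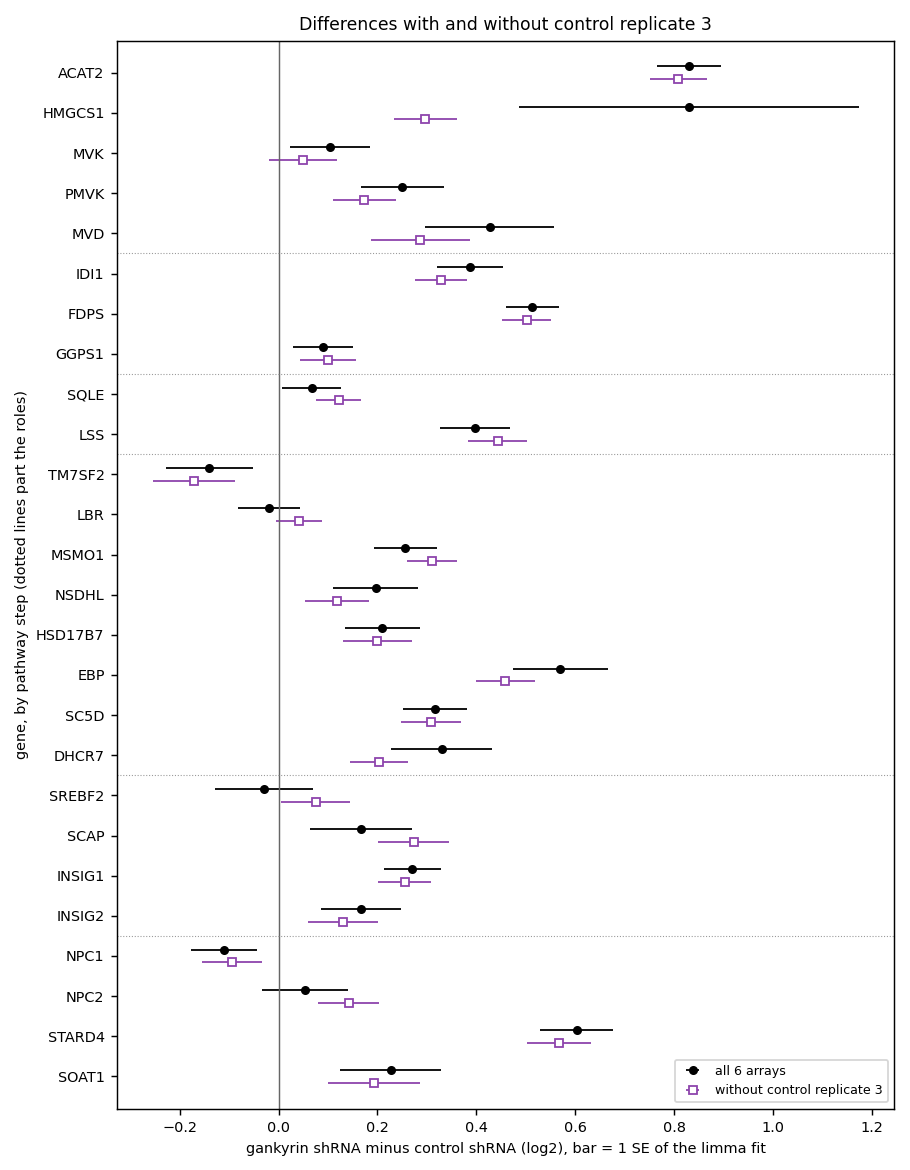
Log2 difference, gankyrin shRNA minus control shRNA, of each measured gene in pathway order, with bars of 1 SE of the limma fit, for all 6 arrays (filled) and without control replicate 3 (open). HMGCS1 moves to 0.30, against 0.83 with all arrays, while ACAT2, FDPS and STARD4 hardly move.

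Of the 4 measured regulators of the pathway 1 rose, with a median difference of 0.17, against 9 of 18 and 0.29 for the synthesis genes; the gap between the 2 was not tested. INSIG1, a target of SREBP2 that also restrains it, had 9.69, 9.83 and 9.82 in gankyrin shRNA arrays, against 9.53, 9.52 and 9.48 in control shRNA arrays. INSIG1 rose by 0.27 ± 0.06 SE (limma adjusted p = 0.00871), and its other probe sets gave 0.30 and 0.58, so that all 3 passed over probe sets (adjusted p = 0.0276, 0.0338 and 0.00809). The call on the brightest probe set was just lost without gankyrin shRNA replicate 2 or 3 (0.0535 and 0.0517). INSIG2, its paralog, had 7.76, 7.83 and 7.63 in gankyrin shRNA arrays and 7.58, 7.64 and 7.50 in control shRNA arrays. The INSIG2 groups overlap by 1 array (0.17 ± 0.08 SE, limma adjusted p = 0.170), and the difference between the 2 INSIG genes was not tested.

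SREBF2 itself had 7.34, 7.26 and 7.36 in gankyrin shRNA arrays and 7.20, 7.29 and 7.56 in control shRNA arrays, with the gankyrin shRNA values inside the range of the controls. Its difference was -0.03 ± 0.10 SE (limma adjusted p = 0.866) and 0.08 without control replicate 3, and a dimmer probe set whose name ends in _s_at was at 0.33 and did not pass. SCAP had 8.01, 7.91 and 7.82 in gankyrin shRNA arrays and 7.70, 7.58 and 7.96 in control shRNA arrays. Control replicate 3 was the highest control, and SCAP passed when it was left out or given less weight (0.17 ± 0.10 SE, limma adjusted p = 0.281 with 6 arrays; 0.27 ± 0.07 SE, adjusted p = 0.00871 without it). mRNA levels do not show how much SREBP2 protein was cleaved, which was not measured.

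Of the 4 genes of sterol transport and storage, STARD4 rose. STARD4, a cytosolic sterol carrier and SREBP2 target, had 8.44, 8.60 and 8.48 in gankyrin shRNA arrays, against 7.90, 7.98 and 7.83 in control shRNA arrays. The groups stood well apart, and STARD4 rose 1.52-fold (log2 0.60 ± 0.07 SE, limma adjusted p = 5.20e-04; 0.57 without control replicate 3). NPC1 and NPC2 together pass cholesterol out of lysosomes. NPC1 had 9.24, 9.28 and 9.16 in gankyrin shRNA arrays and 9.23, 9.41 and 9.37 in control shRNA arrays (-0.11 ± 0.07 SE, limma adjusted p = 0.273). NPC2 had 9.66, 9.56 and 9.45 in gankyrin shRNA arrays and 9.36, 9.47 and 9.68 in control shRNA arrays (0.05 ± 0.09 SE, limma adjusted p = 0.707). Both pairs of groups overlap.

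SOAT1, which esterifies cholesterol for storage, had probe sets with differences of opposite sign. On the brightest it had 7.05, 7.34 and 7.31 in gankyrin shRNA arrays and 6.93, 7.15 and 6.94 in control shRNA arrays (0.23 ± 0.10 SE, limma adjusted p = 0.145). On the second SOAT1 had 6.48, 6.38 and 6.57 in gankyrin shRNA arrays, against 7.07, 7.03 and 7.27 in control shRNA arrays. That probe set fell by 0.65 (limma adjusted p = 0.0102 over probe sets), and its groups did not overlap. The third, at 5.46, 5.51 and 5.41 in gankyrin shRNA arrays and 5.64, 5.61 and 5.84 in control shRNA arrays, was at -0.24 and did not pass. Which transcripts the SOAT1 probe sets read was not tested.

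With each probe set tested by itself, 14 of the 52 member probe sets past the filter rose and 1 fell, against 4.05% and 6.54% of all 32759 probe sets. The 1 that fell belonged to SOAT1. MVD and DHCR7, which rose in the test by gene, did not pass here on the same brightest probe sets (limma adjusted p = 0.101 and 0.104 over probe sets). Of the 14 members with several probe sets past the filter, INSIG1 had all of its probe sets rise, IDI1 and SQLE had 2 of 4 each, and LSS, EBP and SC5D had 1 each.

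**Figure D5:**
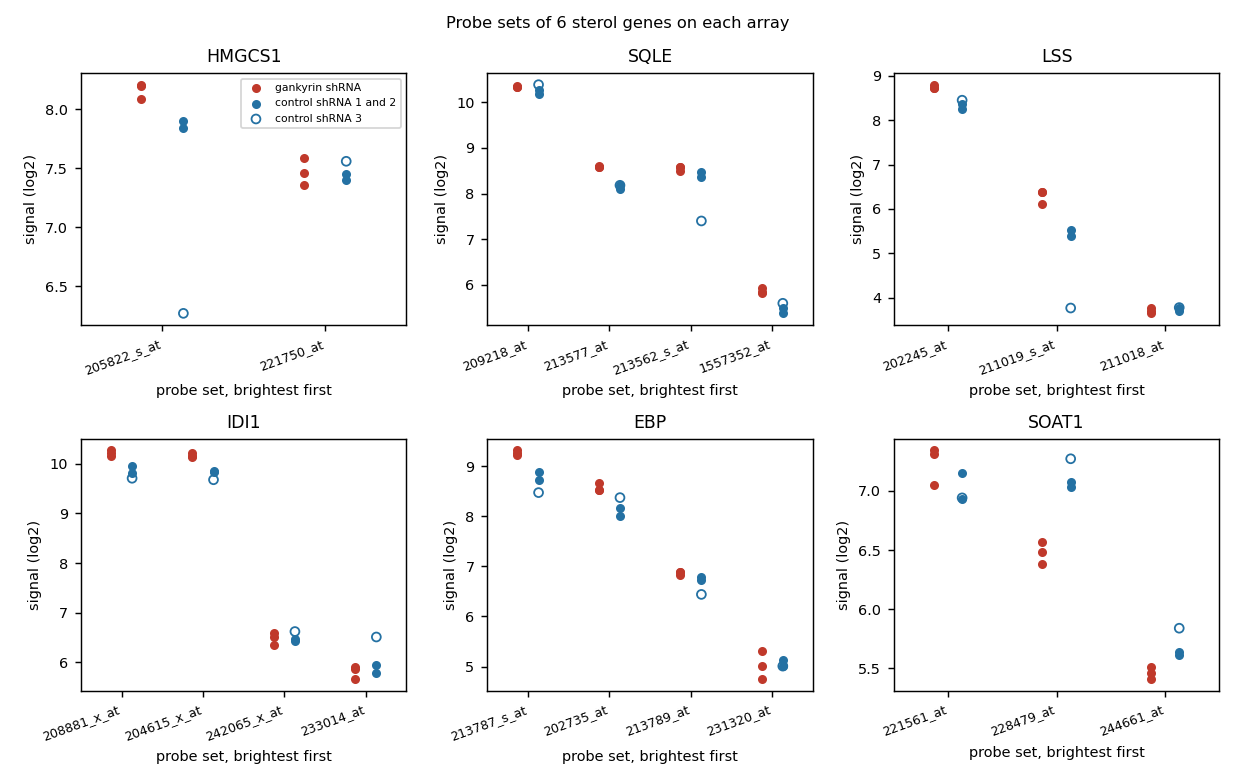
Log2 signal of every probe set past the filter for 6 sterol genes, brightest first, with gankyrin shRNA arrays left of control shRNA arrays. Control replicate 3 (open circle) drops on the _s_at probe sets of HMGCS1, SQLE and LSS and not on their other probe sets, and the first and second SOAT1 probe sets differ in sign (0.23 and -0.65).

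Genes next to the pathway, on 5 lists, held both rises and falls. Of 16 measured genes among 18 on a list of SREBP-responsive fatty acid and lipid genes 3 rose and 1 fell, with a median of 0.10, or 8 and 1 without control replicate 3. MMAB, a cobalamin adenosyltransferase whose promoter faces that of MVK, had 8.95, 8.94 and 8.92 in gankyrin shRNA arrays, against 8.23, 8.28 and 8.09 in control shRNA arrays. MMAB rose by 0.74 ± 0.07 SE (limma adjusted p = 1.07e-04), whereas MVK did not pass on its brightest probe set and varied between probe sets. ACACA, acetyl-CoA carboxylase, rose by 0.43 ± 0.05 SE (limma adjusted p = 6.15e-04). FASN, fatty acid synthase, fell: it had 8.60, 8.55 and 8.59 in gankyrin shRNA arrays and 8.83, 8.84 and 9.20 in control shRNA arrays (-0.38 ± 0.10 SE, limma adjusted p = 0.0196), and was at -0.26 without control replicate 3 (adjusted p = 0.00209). INSIG1 is also on this list.

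Of 15 measured genes among 16 that use isoprenoids 3 rose and 3 fell (6 and 2 without control replicate 3). The prenyltransferase subunit FNTA was at -0.59 ± 0.07 SE (limma adjusted p = 2.98e-04), with 9.28, 9.29 and 9.32 in gankyrin shRNA arrays and 9.81, 9.83 and 10.02 in control shRNA arrays. The coenzyme Q genes PDSS1 and COQ2 rose by 0.47 and 0.52, and the dolichol kinase DOLK fell by 0.37 (limma adjusted p = 0.00169, 0.00501 and 0.0206). Of 19 measured genes among 21 on a list for SREBP processing and sterol-regulated degradation 1 rose and 5 fell (2 and 6 without control replicate 3). ERLIN2, which helps degrade sterol-regulated proteins, was at -0.64, the SREBP ubiquitin ligase subunit FBXW7 at -0.54 and the COPII coat gene SEC24D at -0.56 (limma adjusted p = 0.00180, 0.00555 and 0.00752). The 1 that rose with all arrays was TECR, listed there but a reductase of very-long-chain fatty acid synthesis, by 0.30 (limma adjusted p = 0.00451).

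Of 26 measured genes among 28 of sterol transport and storage outside the member set 2 rose and 7 fell (5 and 8 without control replicate 3). The lysosomal lipase LIPA and the lipoprotein receptor SCARB1 rose by 0.32 and 0.35, and the cholesteryl ester hydrolase NCEH1 and caveolin CAV1 fell by 0.57 and 0.48 (limma adjusted p = 0.00270, 0.00507, 0.00734 and 0.00952). Of 7 measured genes among 12 of the oxysterol and LXR list 0 rose and 2 fell, against 1 and 1 without control replicate 3. SULT2B1, a sterol sulfotransferase, was at -0.60 and the exporter ABCA1 at -0.39 (limma adjusted p = 0.00267 and 0.0398). The ABCA1 call was lost without control replicate 3 (adjusted p = 0.0655), where the exporter ABCG1 passed instead at 0.36 (adjusted p = 0.00204, 0.180 with 6 arrays). The LXR gene NR1H3 was at 0.14 and did not pass. Over these 5 lists 9 of 82 measured genes rose and 18 fell, with a median of 0.00. Without control replicate 3 the counts were 21 and 18. Among all genes 8.13% rose and 14.3% fell with 6 arrays, and 12.7% and 16.6% without control replicate 3. Of the 21 rises without that array 8 were on the SREBP-responsive list, which had 16 measured genes, INSIG1 among them, and 1 fall. Whether the lists differ from all genes was not tested.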

How the data were processed

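Total RNA (6 ug a sample) of 3 gankyrin shRNA and 3 control shRNA samples was read on 6 arrays. The authors deposited log2 probe set signals for 54675 probe sets. That the scale is log2 was read from the values, from 1.29 to 13.68, with array medians of 4.20 to 4.25. The submitters' processing notes name MAS5, with no role, version or scaling stated there. Depth does not apply to arrays, and the number of arrays limits the precision. Groups and replicate numbers came from sample titles.

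Names came from the platform annotation, updated through Entrez identifiers to RefSeq symbols of GRCh38.p14. After 62 control probe sets were set aside, the dimmest 40% by mean signal (limit 3.6) were dropped, leaving 32759. The brightest single-gene probe set stood for each of 14199 genes. The test was limma 3.58.1 (R 4.3.3) with lmFit and a trended eBayes; p-values are two-sided and adjusted by Benjamini-Hochberg across these genes. A gene "rose" or "fell" if its adjusted p was under 0.05. Fits without an array kept the same probe sets. The fit was tested on simulated data with independent noise, in which no array stood apart from the others. That test therefore does not cover an array that stands apart. Promoter letters were matched on both strands with Python 3.11.15. Alternatives were other scalings, filters, probe set rules, variance priors, array weights, a replicate block and single arrays left out.

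The members and gene lists were chosen with earlier results of these data known. All 26 measured members are named, and outside them PSMD10, NFIL3, cell type markers and up to 4 genes of smallest p per list. A control transcript is not reported here.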

Additional observations from a re-analysis of the deposited data

Results flagged for a closer look

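Some control probe sets outside the comparisons were higher on all 3 gankyrin shRNA arrays than on all 3 control shRNA arrays. The 18S ribosomal RNA probe sets for the 3′ end, 5′ end and middle were higher by 1.29, 0.82 and 0.79 on the log2 scale. The 5′ and middle probe sets of GAPDH were higher by 0.29 and 0.14, with control shRNA replicate 3 the lowest array for both. Their part in the sterol gene results was not tested.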

How the results depend on the processing

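With all 6 arrays 11 members passed (11 higher, 0 lower), 27 genes of the neighbouring lists and 3189 of all genes, with a member median of 0.24. ACAT2, FDPS and STARD4 passed in all 19 alternatives, while MVD was lost in 10, DHCR7 in 8 and SC5D and MSMO1 in 4 each. ACAT2, FDPS and STARD4 have only 1 single-gene probe set each, and that of ACAT2 ends in _s_at. Alternatives that change the probe set rule therefore read the same signals for these genes and could not test their choice of probe set. Of 494 member results over the alternatives 418 kept direction and call. A further 3 kept the call with a difference of 0 (HMGCS1 with the next brightest probe set and without _x_at and _s_at ones, SREBF2 without gankyrin shRNA replicate 2). With the sign kept, 31 lost the call and 19 gained it. The other 23 changed sign, and calls lost or gained among them are not in the 31 and 19. IDI1 thus lost its call in 1 alternative with its sign kept and in 2 with its sign changed. With the next brightest probe set 7 members were higher and 1 lower (SOAT1), with 15 list genes and 1599 genes in all. Avoiding probe sets ending in _x_at or _s_at gave a median of 0.185. Array weights, added after seeing the data, gave 15 members higher and 1 lower (NPC1), 45 list genes and 5153 in all. Leaving out arrays, alone or (added later) with control replicate 3 and a probe set rule, gave 7 to 14 members called, 7 to 14 higher, 0 to 1 lower, 15 to 39 list genes, 1732 to 4161 genes in all and medians of 0.19 to 0.27. Signs changed for SREBF2, at 0.0039 after quantile normalization, 0.12 with probe sets averaged, 0.06 with the next brightest and 0.031 with weights. They changed for GGPS1, at -0.038 averaged, -0.17 with the next brightest and -0.17 without _x_at and _s_at probe sets, and for SOAT1, at -0.22 averaged and -0.65 with the next brightest. IDI1 was at -0.27 without _x_at and _s_at probe sets, and LBR at 0.034 with weights. With arrays left out, the ranges were -0.11 to 0.13 for SREBF2, -0.16 to 0.12 for GGPS1, -0.57 to 0.32 for SOAT1, -0.058 to 0.45 for IDI1, -0.053 to 0.042 for LBR, -0.018 to 0.14 for NPC2 and -0.16 to 0.063 for NPC1. Causes were not tested. Same-numbered arrays deviated together at r = 0.02, 0.11 and -0.01, and arrays of different numbers at -0.07 to 0.048. Whether arrays of the same number were handled together was not tested. The replicate block gave 10 members, with MVD lost (adjusted p = 0.0647), and 3049 genes in all. Signal over background was not assessed per probe set, and small differences of dim ones are limited by 3 arrays a group.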
